A study of Mus musculus with 8 samples.

Results

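Markers of the stem cells at the base of the intestinal crypt were followed in lactating WT and Rank-knockout mice. The genes were Lgr5, Ascl2, Olfm4, Smoc2, Scn2b, Slc12a2, Rgmb, Lrig1, Tnfrsf19 and Prom1. These 10 of the 54532 genes in the count table were taken by name, with earlier results of these data known, and 9 of them held enough counts to be tested. Epithelial cells came from 4 WT and 4 Rank-knockout animals on lactation day 5, each giving 1 library for 3′ mRNA-seq. The Rank gene, Tnfrsf11a by its symbol, codes for the receptor activator of NF-κB. Per the study's methods, a floxed Rank allele was deleted in the intestinal epithelium by Cre under the villin promoter, all animals were on the C57BL/6J background, and dams were littermates mated to WT C57BL/6J males. The labels do not give age, nor whether the WT animals carried Cre or a floxed allele. Cells were released from minced intestine with a dissociation reagent and passed through a strainer, and no sorting is described, so that each library held crypt and villus cells together. In such bulk RNA, more cells of a type and more of a transcript per cell cannot be told apart.

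The small intestinal epithelium is renewed from columnar stem cells that sit between Paneth cells at the bottom of each crypt. These cells divide and give rise to transit-amplifying cells, which cycle in the crypt, differentiate and move up the villus. Stem cell identity is kept by Wnt signals and their amplifiers, the R-spondins, and is opposed by BMP signals that strengthen towards the villus. RANK is a receptor of the tumour necrosis factor receptor superfamily and signals through NF-κB.

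Total counts ran from 1530781 to 1616024 in 3 WT libraries, were 4335653 in WT replicate 2, and ran from 2103716 to 4321154 in Rank-knockout, so that genes with few counts were measured less precisely in most WT libraries. Levels are given as CPM, counts scaled to a common library size with trimmed mean of M values (TMM) factors, and since a 3′ tag library gives about 1 tag per transcript, CPM was not divided by gene length. For Tnfrsf11a itself 61 to 196 reads were counted in WT libraries and 79 to 179 in those of Rank-knockout (log2 fold change -0.67, SE 0.22, edgeR adjusted p = 0.032). Reads of the 3′ end may stem from outside the deleted part of the gene. Where they lie was not examined, so the value was not used to check the deletion. The 5 epithelial markers were abundant in every library, at a summed 9168 to 10090 CPM in WT and, without overlap, 6949 to 8618 CPM in Rank-knockout. Of these Epcam (-0.45), Krt20 (-0.96) and Vil1 (-0.80) were called lower by edgeR, and Cdh1 (-0.03) and Krt8 (-0.29) were not. Of 13 stromal and muscle markers 1, Vim, had enough counts to be tested, Lum and Tagln were at 0 in all libraries, and the summed level of the list was 10.6 to 20.4 CPM in WT, while that in Rank-knockout was 6.24 to 21.2 CPM. The 6 endothelial markers summed to 9.24 to 20.4 CPM in WT and, with Cdh5 at 0 throughout, to 10.3 to 20.01 CPM in the knockout, and markers of enteric neurons and glia summed to at most 2.04 CPM in any library, with Sox10 and Gfap at 0. Lymphocyte markers were higher. The T cell list summed to 183.3 to 279.3 CPM in WT and 123.5 to 198.4 CPM in Rank-knockout. For the B and plasma cell list the sums were 31.84 to 69.38 CPM and 4.014 to 26.15 CPM.

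Under TMM scaling most of the marker genes rose in Rank-knockout, while on a scale set by genes of cycling cells, which moved the median of all genes by -1.18 and left 0% of all genes called higher, their log2 fold changes ran from -0.54 to 0.10. By edgeR at an adjusted p under 0.05, 6 of the 10 genes, 9 of them tested, were called higher and 0 lower, where 15.8% of all 9855 tested genes were called higher and 14.6% lower. At an unadjusted p under 0.05 edgeR put 8 of them higher and 0 lower, against 21.8% and 20.1% of all tested genes. DESeq2 called 7 higher and 0 lower, and limma-voom 6 higher and 0 lower, where they called 14.2% and 14.6% of all tested genes higher. For 3 of the 9, Smoc2, Lrig1 and Prom1, every Rank-knockout library was above every WT library, against 14.4% of all tested genes that were higher without overlap. Without a filter on low counts, all 10 genes could be fitted, and 8 were called higher against 8.54% of 20768 genes. With library totals in place of TMM, 8 of the 9 were called higher, against 26% of all tested genes. In the fit without a filter the median log2 fold change was 1.15 over the 10 genes and 0.13 over all genes.

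**Figure D1:**
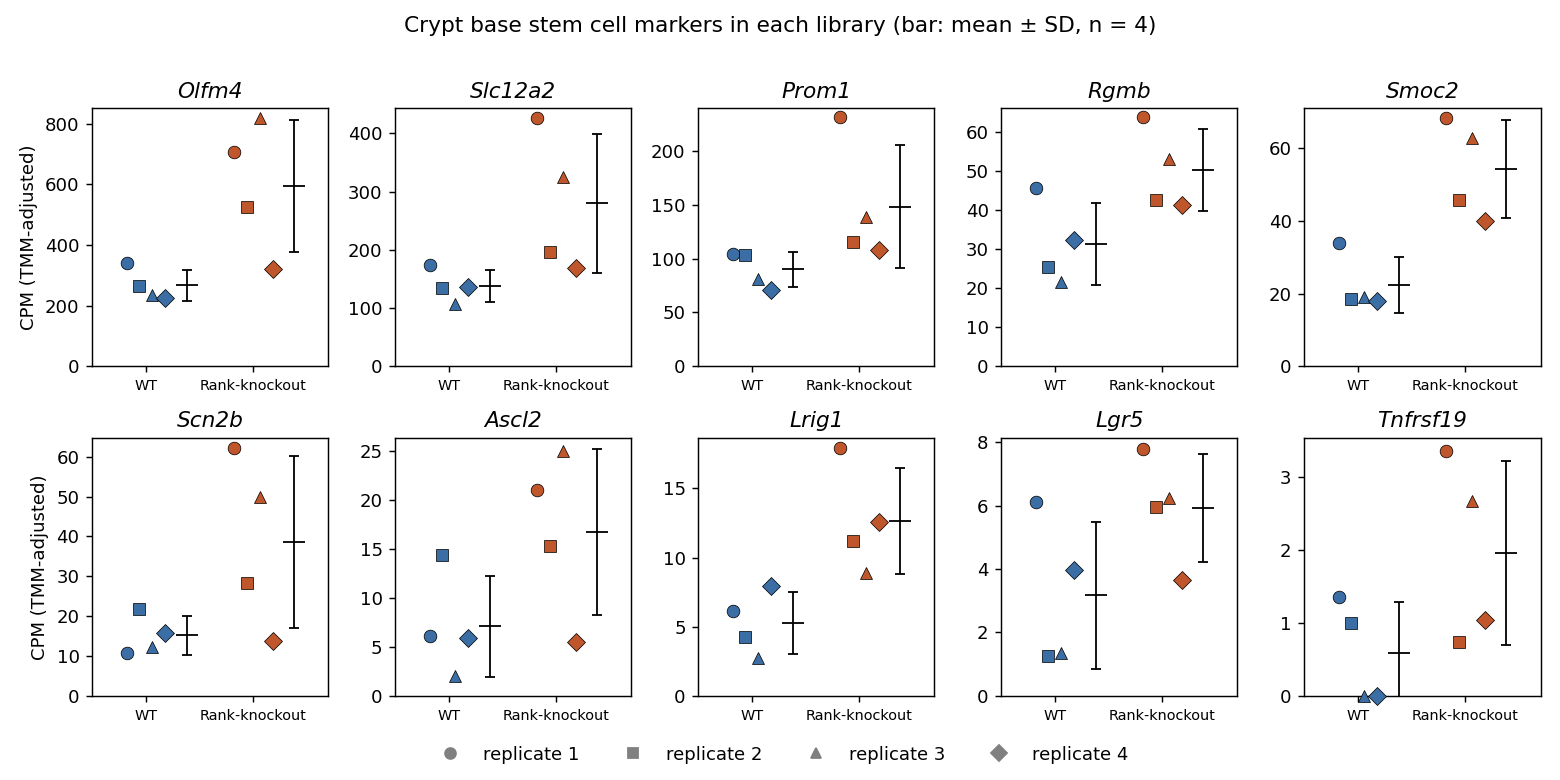
Level of each of the 10 marker genes in each library, in CPM on TMM-adjusted library sizes, for 4 WT and 4 Rank-knockout libraries, with the symbol giving the replicate and the bar the mean ± SD. Each panel has its own axis from 0. The ranges are apart for Smoc2, Lrig1 and Prom1, and the Rank-knockout points of Olfm4, Slc12a2 and Scn2b spread widely, with replicate 4 the lowest of the 4.

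In order of mean CPM in WT, Olfm4 was at 267, Slc12a2 at 137 and Prom1 at 90.1, and each of these was apart from the next gene in its range over the 4 libraries. The ranges of neighbours overlapped from Rgmb at 31.2 CPM down through Smoc2, Scn2b, Ascl2, Lrig1 and Lgr5 to Tnfrsf19 at 0.591 CPM. In Rank-knockout the order by mean CPM was the same but for Smoc2 and Rgmb, which changed places with overlapping ranges. Olfm4, Slc12a2 and Prom1 together made up 83.8% to 87.8% of the summed CPM of the 10 genes in WT, and in Rank-knockout their share was 83.6% to 86.02%. The sum ran from 483 to 726 CPM in WT and, in Rank-knockout, from 718 to 1610, so that Rank-knockout replicate 4 lay inside the WT range.

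Lgr5 (ENSMUSG00000020140, GRCm38 chr10:115450311-115587780, minus strand) encodes the R-spondin receptor whose expression defines the crypt base stem cell. It was counted rarely and was not called. The WT libraries had 9, 5, 2 and 6 counts in replicates 1 to 4, and the Rank-knockout libraries had 37, 16, 14 and 14. Scaled, this was 6.12, 1.26, 1.36 and 3.96 CPM in WT against 7.79, 5.96, 6.24 and 3.66 CPM in Rank-knockout, so that the ranges overlapped through WT replicates 1 and 4. The variance between libraries was 3.90 times that expected from counting in WT and 2.02 times in Rank-knockout. The log2 fold change was 1.08 (SE 0.47, with adjusted p = 0.090 by edgeR). Lgr5 exceeded the filter level of 4.302 CPM in 1 WT and 3 Rank-knockout libraries. With library totals it was called (1.28, edgeR adjusted p = 0.048), and also without WT replicate 1 (1.56) or Rank-knockout replicate 4 (1.27), while without WT replicate 2 it was 0.63.

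Ascl2 (ENSMUSG00000009248, chr7:142966829-142969264, minus strand) encodes a transcription factor of the basic helix-loop-helix class that Wnt signals induce and that acts in the stem cells. Reads of it numbered 9, 57, 3 and 9 in the WT libraries, by replicate, and 100, 41, 56 and 21 in the Rank-knockout libraries. In CPM these were 6.12, 14.3, 2.03 and 5.94 in WT and 21.1, 15.3, 25.0 and 5.49 in Rank-knockout. WT replicate 2 was near Rank-knockout replicate 2, and Rank-knockout replicate 4 fell inside the WT range. The group levels were 7.10 ± 5.17 CPM for WT and 16.7 ± 8.47 CPM for Rank-knockout (mean ± SD, n = 4 libraries each), with a log2 fold change of 1.01 (SE 0.53, with adjusted p = 0.18 by edgeR). It was called without WT replicate 2 (1.78, edgeR adjusted p = 0.031), without Rank-knockout replicate 4 (1.31, 0.0203) and, with all 8 libraries, without the filter on low counts (1.04, 0.0095). It was not called in the other 6 fits that leave out 1 library, the lowest being 0.72 without WT replicate 3 (edgeR adjusted p = 0.31), nor by DESeq2 (1.12, adjusted p = 0.065) or limma-voom (0.92, adjusted p = 0.26).

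Olfm4 (ENSMUSG00000022026, chr14:79984081-80023139, plus strand), which encodes the secreted glycoprotein olfactomedin 4, was the most abundant of the 10 genes in every library. It stood at 339, 265, 236 and 227 CPM in WT replicates 1 to 4 and at 707, 527, 820 and 322 CPM in Rank-knockout. Replicates 1 to 3 of Rank-knockout were above every WT library, and replicate 4 lay just under WT replicate 1. The mean rose from 267 ± 51.0 CPM to 594 ± 218 CPM (mean ± SD, n = 4 libraries each), a log2 fold change of 1.15 (SE 0.25, with adjusted p = 0.0041 by edgeR). The variance between libraries was 14.5 times that expected from counting alone in WT and 268 times in Rank-knockout. This ratio grows with the counts, which were 2246 in WT and 7843 in Rank-knockout. The coefficient of variation of the CPM was 19.14% in WT and 36.65% in Rank-knockout. Leaving out any 1 library gave 0.96 to 1.36, and the call was made in each of these 8 fits. The noncoding gene Gm6999 shares 153 exonic bases with Olfm4 on the same strand, but Gm6999 ends at 80006326, far before the 3′ end of Olfm4 at 80023139 from which the tags come.

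Smoc2 (ENSMUSG00000023886, chr17:14279506-14404790, plus strand), which encodes a secreted calcium-binding matricellular protein, had the smallest p of the tested marker genes. Its WT libraries held 34.0, 18.6, 19.0 and 17.8 CPM in replicates 1 to 4, and its Rank-knockout libraries 68.2, 45.8, 62.9 and 40.01 CPM. Every Rank-knockout library was above every WT library, and among WT libraries replicate 1 was the high one. The means were 22.3 ± 7.77 and 54.2 ± 13.5 CPM (mean ± SD, n = 4 libraries each), with a log2 fold change of 1.30 (SE 0.24, with adjusted p = 0.0011 by edgeR). It was called in all 8 fits without 1 library, with values from 1.17 to 1.52.

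The bases before the start of Olfm4, Scn2b and Ascl2 are shown because Olfm4 was the most abundant marker gene and was called in every fit without 1 library, while the calls of Scn2b and Ascl2 changed with the libraries and the filter used. They are from RefSeq on GRCm38.p6. Promoters of 7 of the 10 genes were searched. The set used held none for Lgr5 or Smoc2, and Slc12a2 was left out of the search. Each is written 5′ to 3′ on the strand of its gene, and capitals mark a motif. The motifs were searched on both strands of the 250 bases before each RefSeq start: CTTTGA of the Wnt factors TCF/LEF, the E-box CAGCTG, the TATA box TATAAA, and the NF-κB consensus. These occur in 13.8%, 13%, 12.4% and 3.9% of 32851 promoters of the same length. The NF-κB motif was added after the Olfm4 sequence had been seen. The Olfm4 stretch (chr14:80000052-80000260, plus strand, 209 bases, of which the last 10 are in an exon of GENCODE) lies inside the gene as GENCODE annotates it, which starts at 79984081, and ends in 2 overlapping matches to the NF-κB consensus, 52 and 51 bases before the RefSeq start. That of Scn2b (chr9:45117626-45117781, plus strand, 156 bases) has 1 match to the TCF/LEF letters, read on the other strand, 246 bases before the RefSeq start. That of Ascl2 (chr7:142969265-142969514, minus strand, 250 bases) holds none of the 4 motifs, and its GC content of 67.6% compares with 35.3% in Scn2b and 54.1% in Olfm4.
Olfm4: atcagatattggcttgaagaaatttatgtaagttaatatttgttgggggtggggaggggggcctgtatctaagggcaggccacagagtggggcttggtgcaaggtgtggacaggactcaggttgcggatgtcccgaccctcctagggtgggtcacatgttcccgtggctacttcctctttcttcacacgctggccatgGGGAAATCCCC
Scn2b: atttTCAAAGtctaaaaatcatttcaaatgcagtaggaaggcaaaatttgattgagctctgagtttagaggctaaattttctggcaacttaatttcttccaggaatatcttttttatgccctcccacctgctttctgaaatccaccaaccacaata
Ascl2: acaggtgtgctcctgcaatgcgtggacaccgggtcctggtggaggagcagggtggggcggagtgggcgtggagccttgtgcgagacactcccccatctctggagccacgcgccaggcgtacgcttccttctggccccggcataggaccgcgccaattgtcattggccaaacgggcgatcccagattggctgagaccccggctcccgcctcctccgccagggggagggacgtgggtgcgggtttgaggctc
A match is a run of letters and not a measured binding site. Among the other genes searched, the TCF/LEF letters and the E-box occurred before the second listed start of Tnfrsf19 (201 and 10 bases before it). TATAAA occurred 29 bases before the first start of Rgmb, and Lrig1 and Prom1 held none of the 4. For these starts of Tnfrsf19 and Rgmb, the bases just after the start were not found in a GENCODE transcript of the gene.

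Scn2b (ENSMUSG00000070304, chr9:45117782-45130070, plus strand) encodes a beta subunit of voltage-gated sodium channels and is used as a stem cell marker in mouse small intestine. Its spread in Rank-knockout, a coefficient of variation of 56.04%, was the widest of the 9 tested marker genes. In WT it stood at 10.9, 21.9, 12.2 and 15.9 CPM in replicates 1 to 4, and in Rank-knockout at 62.1, 28.3, 49.95 and 13.9 CPM. Replicates 1 to 3 of Rank-knockout were above all WT libraries, while replicate 4 was inside their range. The log2 fold change was 1.27 (SE 0.45, with adjusted p = 0.054 by edgeR), from means of 15.2 ± 4.92 and 38.6 ± 21.6 CPM (mean ± SD, n = 4 libraries each). Without Rank-knockout replicate 4 it was 1.56 (edgeR adjusted p = 0.0011), and DESeq2 called it with all libraries (1.29, adjusted p = 0.0048). It was not called in the other 7 fits that leave out 1 library, the lowest being 0.92 without Rank-knockout replicate 1 (edgeR adjusted p = 0.13), nor by limma-voom (1.04, adjusted p = 0.11). Nor did edgeR call it with a replicate block (1.14), RLE factors (1.26) or a minimum mean CPM of 5 (1.28). With edgeR it was called on library totals (1.49), on totals without the 50 most abundant genes (1.41), without the filter (1.31) and on thinning to the shallowest library (1.34).

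Slc12a2 (ENSMUSG00000024597) encodes the sodium-potassium-chloride cotransporter of the basolateral membrane, which supplies chloride for crypt secretion. Its levels were 173, 134, 107 and 135 CPM in WT replicates 1 to 4 and 427, 196, 326 and 170 CPM in Rank-knockout. Only Rank-knockout replicate 4 overlapped the WT libraries, at just under WT replicate 1. The mean rose from 137 ± 27.2 to 279.6 ± 119.6 CPM (mean ± SD, n = 4 libraries each), a log2 fold change of 1.03 (SE 0.27, with adjusted p = 0.0148 by edgeR). It was called in all 8 fits without 1 library, from 0.75 without Rank-knockout replicate 1 (edgeR adjusted p = 0.0266) to 1.21 without Rank-knockout replicate 4. The highest adjusted p of these fits, 0.04902, was that without WT replicate 2, at a log2 fold change of 1.0032.

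Rgmb (ENSMUSG00000048027, chr17:15803188-15831039, minus strand) encodes a membrane-anchored co-receptor for BMP ligands. Its change was smaller, with 45.5, 25.4, 21.7 and 32.4 CPM in WT replicates 1 to 4 and 63.8, 42.4, 53.1 and 41.3 CPM in Rank-knockout. WT replicate 1 lay above Rank-knockout replicates 2 and 4. The log2 fold change was 0.71 (SE 0.22, with adjusted p = 0.026 by edgeR), and leaving out 1 library gave 0.56 to 0.90. Among WT libraries the call was lost without replicate 2 (0.59), 3 (0.56) or 4 (0.70), and among Rank-knockout libraries without replicate 1 (0.56) or 3 (0.68). Prom1 (ENSMUSG00000029086, chr5:43993620-44102032, minus strand) encodes prominin 1, a glycoprotein of membrane protrusions that transit-amplifying cells also carry. It stood at 104, 104, 81.3 and 71.3 CPM in WT and at 232, 115, 138 and 108 CPM in Rank-knockout. No library overlapped, though Rank-knockout replicates 2 and 4 were close to WT replicates 1 and 2. The log2 fold change was 0.72 (SE 0.23, with adjusted p = 0.028 by edgeR), and the call was lost without WT replicate 3 (0.65), WT replicate 4 (0.59) or Rank-knockout replicate 1 (0.42).

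Lrig1 (ENSMUSG00000030029, chr6:94604529-94700158, minus strand), which encodes a membrane protein that restrains signalling of the epidermal growth factor receptor family, rose from low counts. The WT libraries had 9, 17, 4 and 12 counts and the Rank-knockout libraries 85, 30, 20 and 48, or 6.12, 4.27, 2.71 and 7.92 CPM against 17.9, 11.2, 8.92 and 12.6 CPM. The libraries did not overlap, and the nearest were WT replicate 4 and Rank-knockout replicate 3. The log2 fold change of 1.34 (SE 0.33, with adjusted p = 0.0065 by edgeR) was the largest of the 9. When all libraries were thinned to the depth of the shallowest it was 0.89 (edgeR adjusted p = 0.079), and the call was lost. Lrig1 exceeded the filter level in 2 WT and 4 Rank-knockout libraries.

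Tnfrsf19 (ENSMUSG00000060548, chr14:60963875-61046490, minus strand) encodes a Wnt-induced receptor of the same superfamily as RANK. It was too rare to test, with reads numbering 2, 4, 0 and 0 in the WT libraries and 16, 2, 6 and 4 in the Rank-knockout libraries. These were 6 counts in WT and 28 in Rank-knockout in all, and the ranges overlapped. In the fit without a filter the log2 fold change was 1.52 (SE 0.75, with adjusted p = 0.18 by edgeR).

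**Figure D2:**
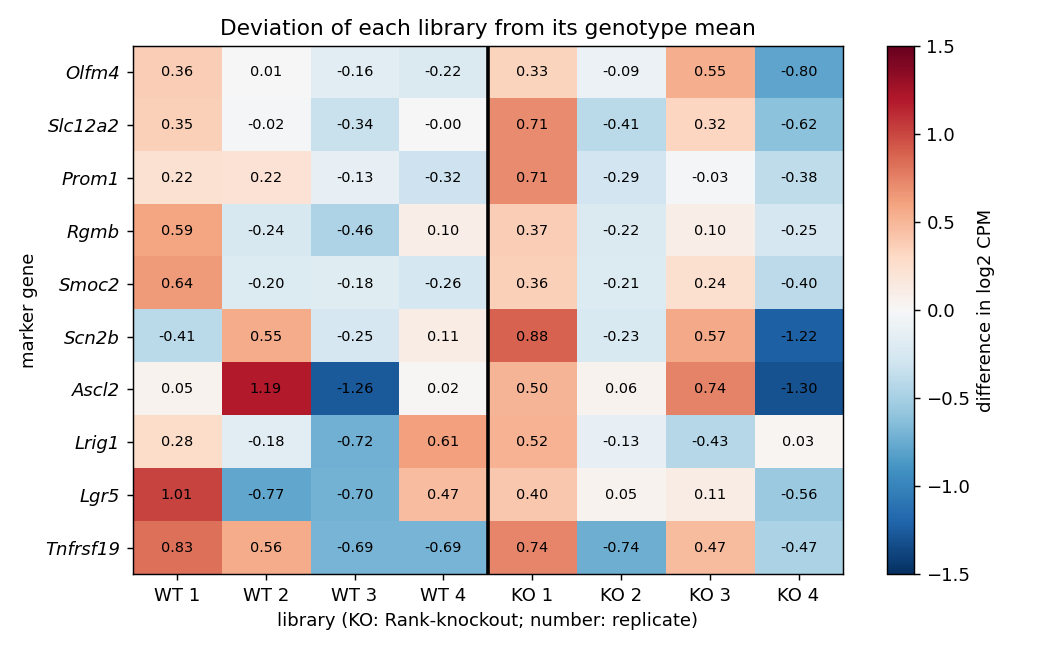
Deviation of each of the 10 marker genes in each library from the mean of its genotype, in log2 CPM. Rank-knockout replicate 4 is below its group mean for all genes but Lrig1, and Rank-knockout replicate 1 is above its group mean for all 10.

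The libraries of a genotype differed in the genes together. Rank-knockout replicate 1 was above the mean log2 CPM of its genotype for all 10 genes, by 0.33 for Olfm4 to 0.88 for Scn2b. Rank-knockout replicate 4 was below it for 9 of the 10, by -0.25 for Rgmb to -1.30 for Ascl2, while Lrig1 stood at 0.03. The same library also had the lowest summed CPM of Rank-knockout for the cycling list (1810 against 2119 to 2918) and the Paneth list (2949 against 5630 to 9409), and the highest for the villus enterocyte list (23459 against 17247 to 20003). Whether these move the marker genes was not tested. Without this library all 9 tested genes were called higher, against 17.5% of all genes tested. Ascl2 and Scn2b each had their highest WT level in replicate 2 and their lowest Rank-knockout level in replicate 4. Counts of Ascl2 per 100 counts of Olfm4 ran from 0.862 to 5.40 in WT and from 1.703 to 3.045 in Rank-knockout. Those of Smoc2 were more even, at 7.01 to 10.02 in WT and 7.67 to 12.4 in Rank-knockout.

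Genes whose profile over the 8 libraries lay nearest to that of a called marker gene were found among 6102 genes by the root mean square difference of centred log2 CPM. For Olfm4 they were Ung, a uracil glycosylase of DNA repair, at 0.12 and Igfbp4, a binding protein of insulin-like growth factors, also at 0.12, where the median gene lay at 0.74. For Smoc2 they were Atad2 (0.16) and Knstrn (0.17), for Slc12a2 Wdr77 and Sox4 (both 0.18), for Rgmb Smc5 (0.08) and Nsd2 (0.12), and for Prom1 Ppid (0.11) and Kcnn4 (0.12). Lrig1 had no near profile, the closest being Xpo5 at 0.32 and Hk2 at 0.34.

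Genes of dividing cells rose as well. By edgeR all 18 tested genes of a list of 20 cycling genes were called higher, where 15.8% of all tested genes were. Among the 18 were Top2a, a DNA topoisomerase of dividing cells (1.12), the mitotic genes Birc5 (1.29) and Aurka (1.33), and the cyclin gene Ccna2 (1.74). DESeq2 and limma-voom each called 17 higher. The list had a median log2 fold change of 1.19, where the median of all tested genes was 0.02. Its summed level was 712 to 1170 CPM in WT and, without overlap, 1810 to 2918 CPM in Rank-knockout. The marker genes were therefore also set against this list by taking its summed counts, 1078 to 4654 in WT and 4949 to 13857 in Rank-knockout, as the library size. On that scale 0 of the 9 genes were called higher, where 0% of all genes were, and 0 lower, where 76.4% were. At an unadjusted p under 0.05 edgeR put 0 higher, against 0.0203% of all genes, and 1 lower, which was Prom1, against 78.4%. DESeq2 on this scale called 0 higher and 1 lower, again Prom1, where it called 76.6% of all genes lower.

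Per 1000 cycling counts, Olfm4 stood at 330, 227, 221 and 318 in WT replicates 1 to 4 and at 242, 249, 372 and 178 in Rank-knockout. These values interleaved, with the highest and the lowest both in Rank-knockout. Smoc2 stood at 33.1, 15.9, 17.8 and 25.1 in WT and 23.4, 21.6, 28.5 and 22.1 in Rank-knockout, and all Rank-knockout values lay within the WT range. Prom1 stood at 101, 88.7, 76.3 and 100.2 in WT and 79.4, 54.5, 62.6 and 59.8 in Rank-knockout, where only replicate 1 reached the WT range. The log2 fold changes on this scale, with intervals of 2 SE, were -0.07 for Olfm4 (-0.61 to 0.47), 0.08 for Smoc2 (-0.48 to 0.65), 0.04 for Scn2b (-0.64 to 0.73), 0.10 for Lrig1 (-0.69 to 0.90) and -0.25 for Slc12a2 (-0.80 to 0.30). For the rare genes they were -0.17 for Lgr5 (-1.20 to 0.87) and -0.11 for Ascl2 (-0.95 to 0.74). Each of these 7 intervals holds 0 and reaches to at least 0.2971 on one side and -0.48 on the other, so they do not show that the genes kept pace with the list. Rgmb was at -0.54 (-1.12 to 0.04, edgeR adjusted p = 0.095) and Prom1 at -0.51 (-1.0045 to -0.0201, edgeR adjusted p = 0.062).

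**Figure D3:**
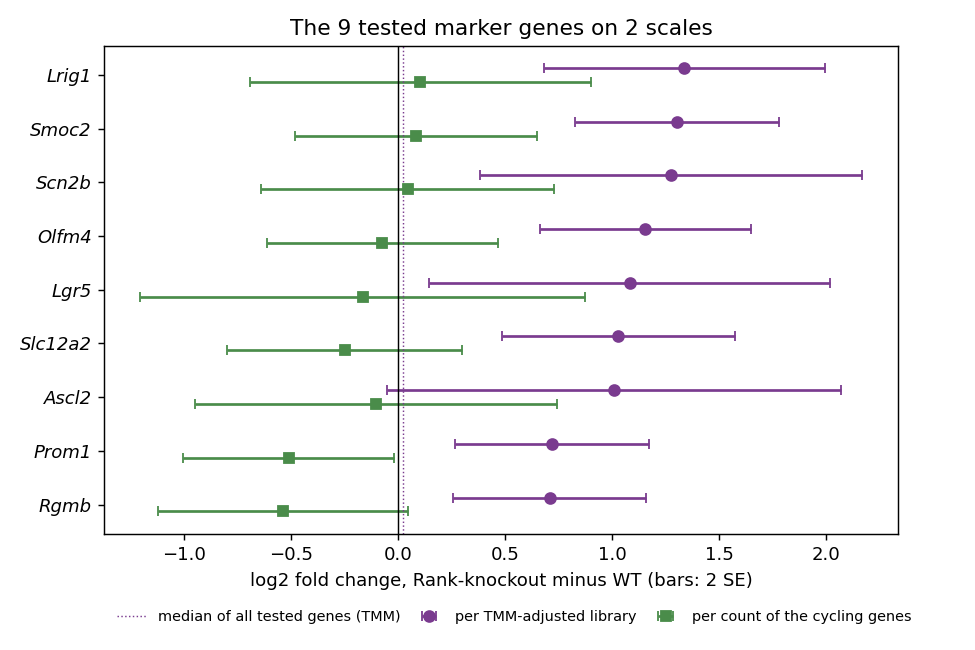
Log2 fold change of Rank-knockout over WT for the tested marker genes, with bars of 2 standard errors, under TMM scaling and with library sizes set by the summed counts of the cycling list. All 9 are positive under TMM, while on the cycling scale they run from 0.10 for Lrig1 to -0.54 for Rgmb and the bars of all but Prom1 reach across 0.

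Most other genes used as markers of the crypt base stem cell or of the crypt also rose under TMM, while on the cycling scale the median of the list was -0.16 and that of all tested genes -1.16. Of a list of 18, 15 were tested, with a median log2 fold change of 1.04. DESeq2 called 10 higher and limma-voom 9, each with 1 lower. By edgeR 11 were called higher and 1 lower, where 15.8% of all tested genes were called higher and 14.6% lower. The 11 were Igfbp4, Soat1, Aqp4, Cdca7, Mex3a, Sox9, Cdk6, Myb, Ephb2, Ephb3 and Cd44. Soat1 was close to the threshold (edgeR adjusted p = 0.0498). Ephb2, a receptor that sorts cells along the crypt, went from 52.4 ± 7.73 to 105.2 ± 16.9 CPM (SD, n = 4 per genotype, log2 fold change 1.01, edgeR adjusted p = 0.00057), and Sox9, a transcription factor of crypt cells, from 95.4 ± 22.5 to 199 ± 61.2 CPM (1.06, 0.0030). The gene called lower was Pdgfa, a growth factor ligand, which went from 131.5 ± 19.0 to 86.97 ± 6.82 CPM (-0.59, edgeR adjusted p = 0.0064) without overlap. Gkn3 (0.54), Prelp (1.12) and Rnf32 (-0.17) were not called. The study itself names Lgr5, Ascl2, Olfm4, Smoc2, Scn2b, Ephb2, Cd44 and Axin2 as stem or progenitor genes, so the direction of these lists is not independent evidence. On the cycling scale edgeR called 2 of the 15 lower against 76.4% of all tested genes, and 0 higher against 0%.

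Of the reserve stem cell genes Bmi1, Hopx, Tert and Msi1, edgeR, DESeq2 and limma-voom called 0 of 4, by an adjusted or an unadjusted p under 0.05, with edgeR log2 fold changes of 0.26, 0.04, 0.42 and 0.77. With 15.8% of all tested genes called higher and 14.6% lower by edgeR, a count of 0 among 4 is near the background. Clu, a gene of regenerating stem cells, was too rare to test, with 5 counts over the WT and 19 over the Rank-knockout libraries. Of 10 genes of R-spondin reception and Wnt feedback 4 could be tested, with 0 called higher and 1 lower by edgeR, DESeq2 and limma-voom, and a median of 0.05. At an unadjusted p under 0.05, 1 was higher by limma-voom and 0 by the other tools. Lgr4, the relative of Lgr5 that is expressed throughout the epithelium, was at 0.38 (edgeR adjusted p = 0.21), the Wnt target Axin2, also a stem cell gene in the study, at 0.48 (0.14), and Rnf43, which removes Wnt receptors from the surface, at -0.29 (0.35). Sp5, a transcription factor induced by Wnt signals, fell from 21.3 ± 1.93 to 8.82 ± 2.15 CPM (mean ± SD, n = 4 libraries each), a log2 fold change of -1.26 (SE 0.23, with adjusted p = 0.0011 by edgeR), without overlap. Znrf3, which acts like Rnf43, was too rare for the test but higher without overlap, with 2.28 ± 0.691 CPM in WT against 5.27 ± 1.73 CPM in Rank-knockout (mean ± SD, n = 4 libraries each). Without the filter 9 of the 10 genes were fitted, their median was 0.42, and Znrf3 was called higher (1.32, edgeR adjusted p = 0.035). With library totals the median of the 4 was 0.24 and Axin2 was called higher (0.69, edgeR adjusted p = 0.042).

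**Figure D4:**
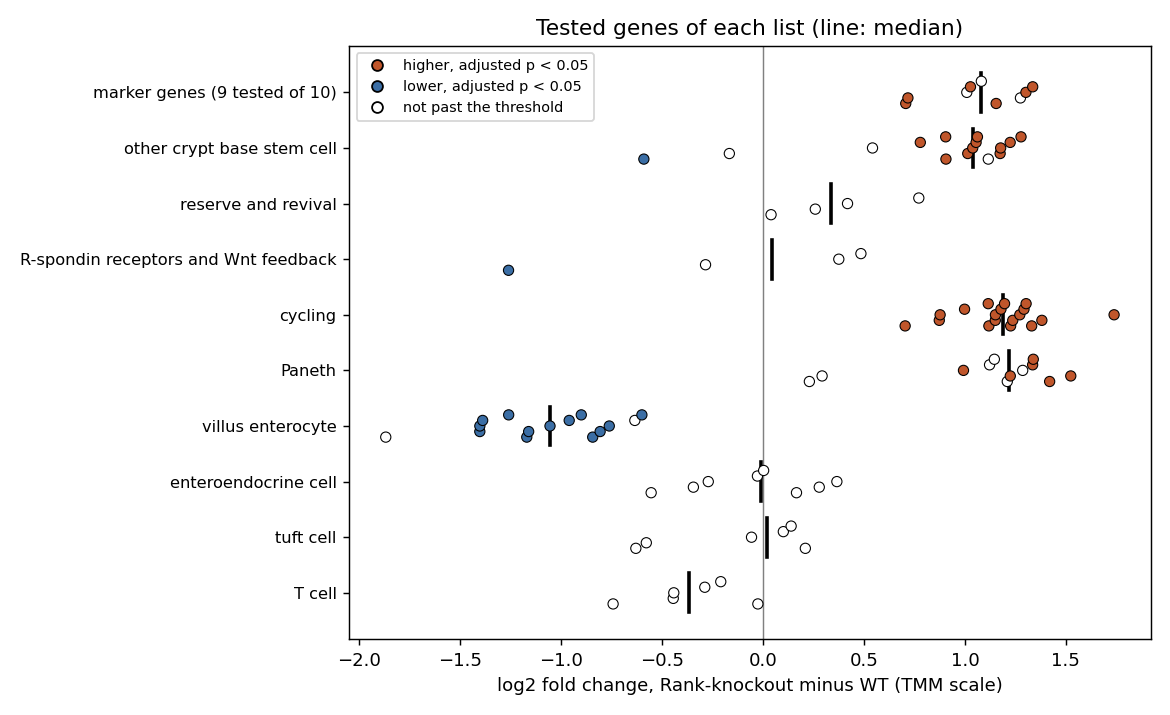
Log2 fold changes of Rank-knockout over WT under TMM for the tested genes of each list, 1 point per gene, with the median of each list marked. The marker genes, the other crypt base genes, the cycling genes and the Paneth genes lie mostly above 0, and the villus enterocyte genes lie below 0.

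Genes of Paneth cells, which neighbour the stem cells, and of villus enterocytes differed too. Of 12 Paneth genes, all tested, 6 were called higher by edgeR and 9 by DESeq2 or limma-voom, with a median log2 fold change of 1.22, and their summed level was 2142 to 4530 CPM in WT and, with overlap, 2949 to 9409 CPM in Rank-knockout. Of the antimicrobial and secretory products of these cells, Itln1 (0.99, edgeR adjusted p = 0.038) and Defa21 (1.42, 0.0067) were called and Lyz1 (1.21, 0.084) was not. Wnt3, the Wnt ligand that Paneth cells make for the stem cells, rose from 4.56 to 12.4 CPM (log2 fold change 1.34, edgeR adjusted p = 0.0081) without overlap. Its counts were low, at 9, 27, 3 and 5 in WT and 80, 37, 22 and 35 in Rank-knockout. WT replicates 3 and 4 were under the filter level of 4.302 CPM. Of 15 villus enterocyte genes 13 were called lower by edgeR, with a median of -1.06, among them the apolipoproteins Apoa4 (-1.16) and Apoa1 (-1.26) and the brush border sugar hydrolases Mgam (-0.81) and Treh (-1.39), and their summed level was 31840 to 45050 CPM in WT and, without overlap, 17250 to 23460 CPM in Rank-knockout. The part of these shifts in the values of the marker genes was not tested. The defensins of the Paneth list have near-identical copies that may share reads, so their values are uncertain. Markers of tuft cells (0 of 6 tested called), enteroendocrine cells (0 of 8) and T cells (0 of 6) had medians of 0.02, -0.01 and -0.37. EdgeR, DESeq2 and limma-voom made none of these calls, and at an unadjusted p under 0.05 edgeR put 1 tuft, 2 enteroendocrine (Chgb, 0.37, and Tph1, -0.55) and 1 T cell gene (Gzma, -0.45) past it. Igkc of the B and plasma cell list was lower (-1.90, edgeR adjusted p = 0.0091).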

How the data were processed

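Intestinal epithelial cells of 4 WT and 4 Rank-knockout mice on lactation day 5 gave 8 libraries. As the methods of the study describe, the authors trimmed reads by BBDuk, removed ribosomal, mitochondrial and other abundant sequences with bowtie2, aligned to GRCm38 with STAR and counted sense-strand reads in Ensembl genes with featureCounts. The deposited values are raw counts per gene. No molecular identifier is described, and PCR copies may be counted. The table held 54532 genes, 33764 of them at 0 throughout, and symbols from GENCODE M21, matched by identifier, were found for 54409.

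The marker genes and gene lists were chosen with earlier results of these data known. Named are the 10 marker genes, Tnfrsf11a, the called genes of the other crypt base, reserve and Wnt feedback lists with up to 4 uncalled ones of each by count, of other lists genes that are among the 2 with the most counts or the 2 with the smallest p, and the 2 nearest profiles of each called marker gene. Markers of other cell types that were at 0, and Krt8, were named after their values were seen. Low counts were removed with filterByExpr (at least 4.302 CPM in 4 libraries), and 9855 genes were tested by the quasi-likelihood test of edgeR 4.0.16 in R 4.3.3, with TMM scaling and genotype as the only term. Adjusted p values are Benjamini-Hochberg over all tested genes, called under 0.05. Log2 fold changes are given as Rank-knockout over WT, SE was derived from the F statistic, and CPM used TMM library sizes. Deviations and profiles were taken on log2 CPM (prior count 2), and likeness was sought among genes at a mean of 20 CPM or more.

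Alternatives were DESeq2 1.42.0, limma-voom (limma 3.58.1), RLE factors, scaling by library totals, by totals that exclude the 50 most abundant genes or by the cycling list, no filter or a minimum mean CPM of 5, thinning to the shallowest library, a replicate block and leaving out each library. The cycling scale with DESeq2, with a mean of log2 values or with a library left out was added after seeing the data. Total counts ran from 1530781 to 4335653. Promoter stretches were cut where a GENCODE exon begins, or after a motif there.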

Additional observations from a re-analysis of the deposited data

Results flagged for a closer look

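In sets of 4 libraries of 1 genotype, a library was taken as apart when its gap to the nearest other as a share of the range of the set exceeded the critical value of Dixon's test. Of 52 sets 4 met this, and chance gives about 2.6. WT replicate 2 had 4335653 total counts, against 1530781 to 1616024 in the other WT libraries. Smoc2 stood at 33.98 CPM in WT replicate 1 and at 17.83 to 18.97 CPM in the other WT libraries, and without it the log2 fold change of Smoc2 was 1.52, against 1.30. The tuft cell list summed to 39.97 CPM in WT replicate 3, against 61.3 to 65.2 CPM. The enteroendocrine list summed to 619.6 CPM in WT replicate 2, against 534.1 to 546.1 CPM.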

How the results depend on the processing

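Outside the cycling scale, 151 log2 fold changes of the 9 tested marker genes were computed under the alternatives. All 151 were positive, 130 kept their side of the threshold, 9 lost a call and 12 gained one. Lrig1 was lost on thinning, and the other losses were of Rgmb and Prom1 without a library. The gains were of Lgr5, Ascl2 and Scn2b. Lgr5 was not tested on thinning or with a minimum mean CPM of 5. The labels do not say whether equal replicate numbers mark paired animals. The correlation of deviations between same-numbered libraries was 0.052, 0.153, -0.139 and 0.323, and not every library correlated best with its own number. These values cannot show whether the animals were paired. A replicate block gave 1708 genes higher, 1602 lower and the same count of 6 marker genes higher. Library totals gave 2566 genes higher and 859 lower, moved the median of all genes by 0.20 and the share of higher among called genes from 51.95% to 74.9%, and called 8 marker genes, against a background of 26%. Leaving out the 50 most abundant genes moved the median by 0.13 and the share to 68.05%. Without each library in turn, 1020 (without WT replicate 4) to 1718 genes were higher, 1097 to 1564 lower, and 4 to 9 marker genes higher. Without WT replicate 3, WT replicate 4 or Rank-knockout replicate 1 the count was 4.

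On the cycling scale the median of all genes moved by -1.18, 0 genes and 0 marker genes were higher and 7531 genes lower by edgeR (2 higher at an unadjusted p under 0.05). With DESeq2 0 genes were higher, 7545 lower and 1 marker gene lower (0 higher at an unadjusted p under 0.05), and with the mean of log2 values in place of the sum 0 were higher and 7570 lower. As this scale moves every gene down, fitted values fell below 0 for 6 genes, and 5 of these have an interval of 2 SE that holds 0 by edgeR. By edgeR, DESeq2 and the mean of log2 values in turn, the log2 fold change was -0.17, -0.24 and -0.16 for Lgr5, -0.11, -0.0588 and -0.13 for Ascl2, -0.0744, -0.0742 and -0.0792 for Olfm4, -0.25, -0.25 and -0.25 for Slc12a2, -0.54, -0.54 and -0.53 for Rgmb, and -0.51, -0.51 and -0.51 for Prom1. With a library left out on this scale, Rgmb was called lower in 2 of 8 fits and Prom1 in 1. Lgr5 and Tnfrsf19 had the fewest counts, 22 and 6 over the WT libraries.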
